A study of Mus musculus with 18 samples.

Results

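The genes described here are 9 chemokines and cytokines, Ccl2, Ccl5, Ccl7, Cxcl1, Cxcl5, Cxcl10, Cxcl12, Il6 and Csf1, taken by name from the 20207 genes listed for each of 18 mRNA-seq libraries. Of these, 8 passed the filter for testing, at least 1 read in every library, and Il6 did not.

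Chemokines are small secreted proteins that bind G protein-coupled receptors and guide the movement of leukocytes and other cells along a gradient. Members of the CC group, named for a pair of adjacent cysteines, mainly draw monocytes and lymphocytes, whereas the CXC group includes neutrophil attractants (Cxcl1, Cxcl5), an interferon-inducible T cell attractant (Cxcl10) and a largely constitutive stromal factor (Cxcl12). Fibroblasts are a known source of many of them, and of Il6, a cytokine of the acute phase response, and Csf1, the growth factor that macrophages depend on.

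All libraries came from NIH3T3, a mouse embryonic fibroblast line. The cells were a sorted pool stably expressing DD-sfGFP, a GFP fused to a destabilized domain that a ligand (S1) holds in the folded state, and S1 was present in every group used here. The control was kept at 37°C and taken at 0 min. No control of a later time is among these libraries, so in comparisons with the control a stress and the time elapsed cannot be told apart. HS, a heat shock at 42°C, was sampled at 45 and 135 min, and 5 µM tunicamycin (Tu), a blocker of N-linked glycosylation that causes unfolded proteins in the endoplasmic reticulum, at 45, 135 and 405 min. Each of the 6 groups had 3 replicates, and the labels do not say whether replicates were separate cultures, so p-values measure the spread between these libraries, which may be technical. A single cell line and a single sorted pool limit what the groups stand for. In bulk RNA, fewer cells that make a message and less message per cell cannot be told apart.

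Each library held 33415592 to 66478268 reads on genes. By total reads alone, 3 reads, taken as the floor, were worth 0.0451 to 0.0898 CPM (reads scaled to library size). The CPM values below also carry TMM scaling factors of 0.824 to 1.164, which shift this floor. Thus 3 reads of Cxcl10 in HS replicate 2 at 45 min were 0.0653 CPM. Summed fibroblast markers reached 21532.8 to 80657.5 CPM, against 11.3 to 18.1 CPM for the 7 leukocyte and macrophage markers listed. Most of the latter sum came from Cd68, Cd14 and Csf1r, with control means of 6.96, 6.88 and 2.53 CPM, while the macrophage gene Emr1 was at 0 in all libraries. Stress marks were raised at the latest time of each stress. Hspa1b (an HSP70 gene with a near-identical copy, Hspa1a) was 152-fold higher at 135 min of HS, and Ddit3 (the factor CHOP) was 37.1-fold higher at 405 min of Tu (edgeR, Benjamini-Hochberg adjusted p = 0.0058 and 2.45e-06). The Tu marks Ddit3 and Hspa5 were also higher at 135 min of HS, by 5.01-fold and 1.94-fold (adjusted p = 0.0122 and 0.0312). At 45 min of Tu Ddit3 was 7.59-fold higher (adjusted p = 0.000836), and Hspa5 was not called (log2 fold change 0.45, adjusted p = 0.0709). Neither Ddit3 nor Hspa5 was called at 135 min of Tu, with log2 fold changes of 1.54 and −0.72 (adjusted p = 0.0706 and 0.135). At 45 min of HS Hspa1b was 31.8-fold higher without being called (adjusted p = 0.192). Replicates differed mainly along 1 axis, which held 75.6% of the spread within groups. The weight of a gene on that axis followed its GC content (Spearman's rho 0.71 over 10764 genes, a description across genes that are not independent). Scores on this axis are given below for Ccl7 and Il6, but other members varied with them in part. Control replicate 1 had the highest score of its group (0.185) and the highest Ccl2, Cxcl10 and Cxcl12. The same held for replicate 2 at 135 min of HS (0.637) and at 405 min of Tu (0.058). At 45 min of Tu replicate 3 scored highest (0.232), but replicate 1 (−0.176) was highest for these genes, and the remaining groups were mixed. The part of the axis in these values was not tested.

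RefSeq's promoter table, on build GRCm38.p6, held 5 of the 9 genes (Cxcl1, Cxcl10, Cxcl12, Csf1 and Il6) and had no entry for Ccl2, Ccl5, Ccl7 or Cxcl5. The 250 bases before the start of 3 CXC genes are shown because these genes differed in their patterns below: Cxcl10 (chr5:92348890-92349139, minus strand), which rose under both stresses, Cxcl1 (chr5:90890995-90891244, plus strand), which passed no test, and Cxcl12 (chr6:117168285-117168534, plus strand), which fell at the latest time of Tu. Capitals mark matches on either strand to a kB-like motif (GGANNTNCC, the kind of site that NF-kB binds) and to an ISRE-like motif (GAAANNGAA, the kind that interferon regulatory factors bind).
Cxcl10: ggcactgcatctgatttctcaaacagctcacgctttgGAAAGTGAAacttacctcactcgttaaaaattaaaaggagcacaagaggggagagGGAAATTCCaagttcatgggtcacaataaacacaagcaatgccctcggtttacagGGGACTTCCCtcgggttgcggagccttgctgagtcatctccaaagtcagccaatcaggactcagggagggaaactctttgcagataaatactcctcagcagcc
Cxcl1: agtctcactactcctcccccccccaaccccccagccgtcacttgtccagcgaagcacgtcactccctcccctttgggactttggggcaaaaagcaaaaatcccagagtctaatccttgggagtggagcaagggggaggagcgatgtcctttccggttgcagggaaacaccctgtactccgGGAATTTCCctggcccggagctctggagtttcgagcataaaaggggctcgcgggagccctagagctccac
Cxcl12: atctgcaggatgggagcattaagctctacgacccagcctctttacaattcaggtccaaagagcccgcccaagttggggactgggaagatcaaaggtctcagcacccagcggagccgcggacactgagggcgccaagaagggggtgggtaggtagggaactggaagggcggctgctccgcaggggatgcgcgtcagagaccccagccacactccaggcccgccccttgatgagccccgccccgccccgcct

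The Cxcl10 window held 2 kB-like stretches, at −158 and −103 from the start, the latter being a pair of matches on opposite strands that overlap and are offset by 1 base. It also held an ISRE-like match at −213. The Cxcl1 window held a kB-like match at −70, and the Cxcl12 window held neither motif. Of the other members, Csf1 had a kB-like match at −154 and Il6 one at −43. Among all 32536 windows of this length in the table, 12.3% held the kB-like and 7.15% the ISRE-like motif. Further motifs searched on both strands, not capitalized, were an AP-1 site (TGANTCA, in 6.73% of windows), a pair of heat shock element units (GAANNTTC, 6.72%), a UPRE-like motif of the unfolded protein response (TGACGTG, 1.66%) and a C/EBP-ATF-like motif (TGATGNAA, 3.4%). Cxcl10 held the AP-1 motif at −74 and Il6 at the upstream end of its window, Cxcl1 held the UPRE-like motif at −196, and the 5 windows held no match to the other 2. These letters describe the windows and are not evidence of binding.

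On a scale that takes gene length into account (RPKM), Csf1 was the most abundant member in the control at 121 ± 19.4 (SD, n = 3), followed by Ccl2 at 69.4 ± 36.4, Cxcl12 at 31.2 ± 12.3 and Ccl7 at 16.5 ± 4.99. The neutrophil attractants were lower, at 2.11 ± 0.331 RPKM for Cxcl1 and 0.675 ± 0.179 for Cxcl5. Ccl5, Cxcl10 and Il6 were near the floor, with 0.271 ± 0.303, 0.148 ± 0.0567 and 0.0803 ± 0.0909 RPKM. The ranges of Csf1 and Ccl2 overlapped, as did those of Cxcl12 and Ccl7 and those of the 3 lowest genes, whereas Ccl2 lay above Cxcl12, Ccl7 above Cxcl1, and Cxcl1 above Cxcl5 in every control library. At 405 min of Tu the order was different below Ccl7: Ccl5 reached 4.12 ± 0.883 RPKM and Cxcl10 reached 1.21 ± 0.156, so that Ccl5 lay above Cxcl1 (1.77 ± 0.352) in every library.

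**Figure D1:**
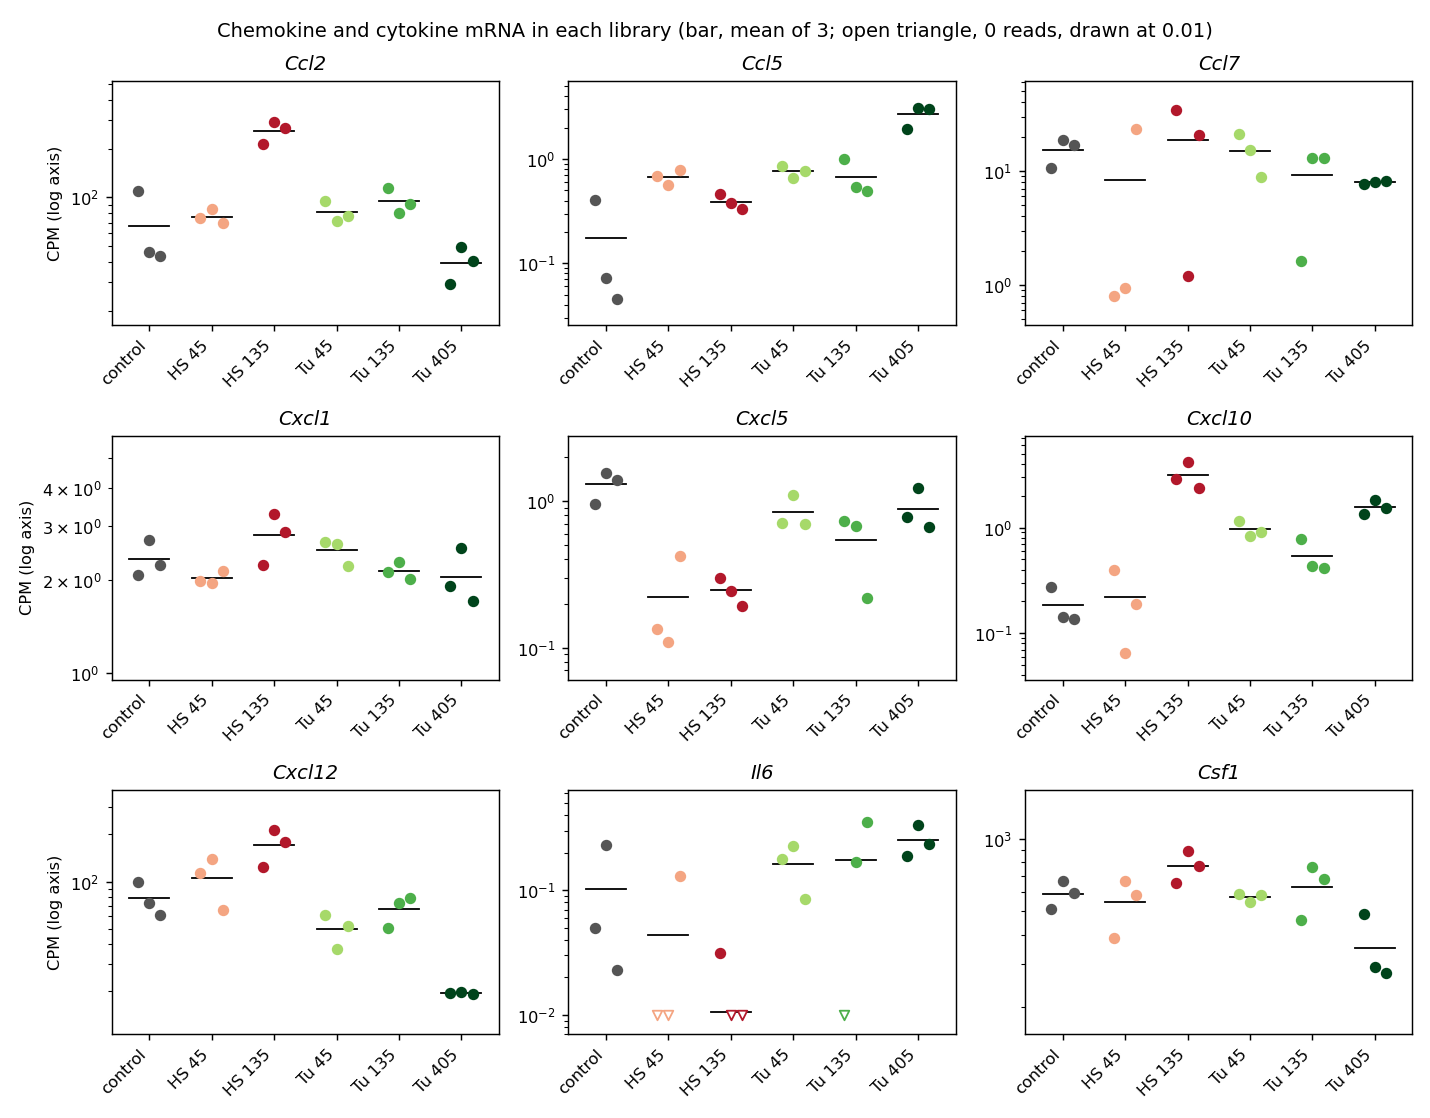
CPM (log axis) of the 9 genes in each of the 18 libraries, by group, with times in min. Points are libraries, bars are means of 3, and open triangles at 0.01 are libraries with 0 reads. Ccl2 and Cxcl10 stand highest at 135 min of HS, Ccl5 stands highest and Cxcl12 lowest at 405 min of Tu, and Ccl7 splits into levels above 7 and below 2 CPM.

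Taken over the comparisons with the control, which all share the same 3 control libraries, each of the CC and CXC genes except Cxcl1 passed the test at least once. No member passed at 45 min of HS, where the share of all 12731 tested genes called was 0.0% higher and 0.0% lower (edgeR's quasi-likelihood test, Benjamini-Hochberg adjusted p under 0.05). At an unadjusted p under 0.05 there were 2 members (Cxcl5 and Ccl5), and DESeq2 called 1, beside 19.5% of all genes at that p and 451 genes called by DESeq2. At 135 min of HS, Cxcl10 and Ccl2 were higher and Cxcl5 lower (2 and 1 of 8 tested, against 4.75% and 2.64% of all genes). Cxcl10 was the 1 member called at 45 min of Tu (1 higher and 0 lower of 8, against 4.01% and 2.17%). At 135 min of Tu no member passed, against 0.126% and 0.00785% of all genes, with 3 members at an unadjusted p under 0.05 and 0 called by DESeq2, beside 18.6% of all genes at that p and 639 genes called by DESeq2. At 405 min of Tu, Ccl5 and Cxcl10 were higher and Ccl7, Cxcl12 and Csf1 lower (2 and 3 of 8, against 23.3% and 23.5%), and the share of members called was near that of all genes. The Csf1 call at that time was lost when the length of the gene model used for counting was taken into account, as described below. Its value without that correction also enters the median that follows. The median log2 fold change of the 8 members was 0.04, 0.76, 0.06, 0.01 and −0.63 in these comparisons in the order given, beside −0.03, −0.02, −0.00, −0.00 and −0.01 over all genes tested.

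**Figure D2:**
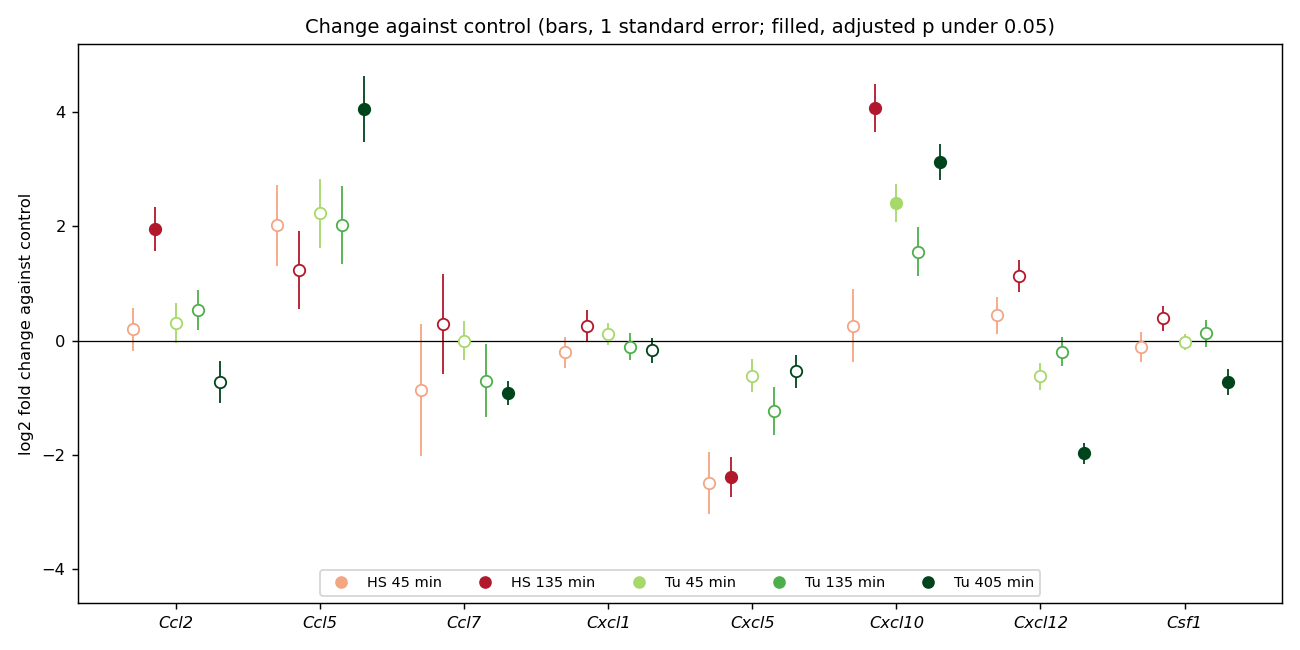
Log2 fold change against the control (vertical axis) of the 8 tested genes under HS and Tu, with bars of 1 standard error. Filled points have a Benjamini-Hochberg adjusted p under 0.05 (edgeR). Cxcl10 has filled points at 135 min of HS and at 45 and 405 min of Tu, and Cxcl1 has none.

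Ccl2 (chromosome 11 of mm9, 81849079 to 81850954) encodes the monocyte attractant MCP-1, and was raised under HS at 135 min but not detectably under Tu. It had 109.5, 46.2 and 43.5 CPM in the 3 control libraries and 213.5, 289 and 269 CPM at 135 min of HS. Every HS library was above every control, though control replicate 1 stood well above the other controls. The difference was 3.88-fold, 1.95 on the log2 scale (standard error 0.383, adjusted p = 0.0277, edgeR, Benjamini-Hochberg). That call was lost without control replicate 2, control replicate 3 or HS replicate 3 at 135 min, with adjusted p up to 0.13 and log2 fold changes of 1.73 to 2.53 over the 6 fits that each left out 1 library.

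After 45 min of HS the libraries had 74.2, 84.4 and 69.5 CPM of Ccl2, all between the highest control and the other controls. Under Tu, levels were 95.4, 71.7 and 76.9 CPM at 45 min, 114.9, 80.0 and 90.9 CPM at 135 min and 29.4, 49.2 and 40.4 CPM at 405 min. Each of these 4 groups overlapped the control, and their adjusted p-values were 0.739, 0.625, 0.455 and 0.138 (edgeR), with log2 fold changes of 0.20, 0.31, 0.53 and −0.72. Without control replicate 1, the 45 min Tu value became 0.87 with an adjusted p of 0.0161. Between 135 and 405 min of Tu, where no control enters, Ccl2 fell 2.44-fold, with all 3 late libraries below all 3 earlier ones (log2 fold change −1.28, standard error 0.225, adjusted p = 0.00319, edgeR). HS at 135 min exceeded Tu at the same time by 2.66-fold (log2 fold change 1.41, standard error 0.208, adjusted p = 0.0354), and this call was lost in 5 of the 6 fits that left out 1 library, all except the fit without HS replicate 1, with adjusted p up to 0.219. It also ended with a GC offset (log2 fold change 1.61, adjusted p = 0.056).

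Ccl5 (RANTES, chromosome 11, 83339281 to 83344020) attracts T cells, monocytes and eosinophils, and its message was raised most at the latest time of Tu. Control libraries had 0.402, 0.0714 and 0.0458 CPM, which were 16, 4 and 2 reads. At 405 min of Tu there were 1.96, 3.12 and 3.005 CPM, or 124, 177 and 167 reads. The groups were far apart, and the controls were at or close to the floor of 3 reads in all but replicate 1. The fitted difference was 16.6-fold (log2 fold change 4.06, standard error 0.573, adjusted p = 0.000859, edgeR), and the size depended on that replicate, since the log2 value was 5.46 without it. The call was kept in all 6 fits that left out 1 library.

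At the earlier times Ccl5 lay at intermediate levels. It had 0.687, 0.566 and 0.785 CPM at 45 min of HS, 0.459, 0.377 and 0.334 CPM at 135 min of HS, 0.862, 0.662 and 0.762 CPM at 45 min of Tu and 0.992, 0.544 and 0.492 CPM at 135 min of Tu. In 3 of these 4 groups every library exceeded every control, and the exception was 135 min of HS. None passed the test, with log2 fold changes of 2.02, 1.23, 2.23 and 2.03 and adjusted p-values of 0.233, 0.26, 0.0689 and 0.19 (edgeR). Without control replicate 1, the values at 135 min of HS and 45 min of Tu became 2.67 and 3.63, with adjusted p-values of 0.0407 and 0.00419. From 135 to 405 min of Tu, Ccl5 rose 3.92-fold (log2 fold change 1.97, standard error 0.331, adjusted p = 0.00263).

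Ccl7 (MCP-3, chromosome 11, 81859214 to 81861023) is a relative of Ccl2 that attracts monocytes, and its gene starts 8259 bases beyond the end of Ccl2. Its level varied more between replicates than between conditions. The controls had 10.54, 18.6 and 16.9 CPM, and the HS libraries 0.802, 0.936 and 23.4 CPM at 45 min and 34.2, 1.197 and 20.7 CPM at 135 min. Under Tu there were 21.2, 15.3 and 8.83 CPM at 45 min, 1.62, 13.1 and 12.9 CPM at 135 min and 7.69, 8.10 and 8.24 CPM at 405 min.

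The 4 lowest values of Ccl7, those of HS replicates 1 and 2 at 45 min, HS replicate 2 at 135 min and Tu replicate 1 at 135 min, were thus between 0.802 and 1.62 CPM, and the other 14 libraries between 7.69 and 34.2 CPM. These 4 libraries had the 4 highest scores on the main axis of spread between replicates, from 0.262 to 0.637, and the others scored −0.698 to 0.232. The part of this axis in the Ccl7 values was not tested. Ccl2, its neighbour, had no such split, with 74.2, 84.4 and 69.5 CPM in the 3 libraries at 45 min of HS. The low libraries still held 42 to 67 Ccl7 reads, well above the floor.

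**Figure D3:**
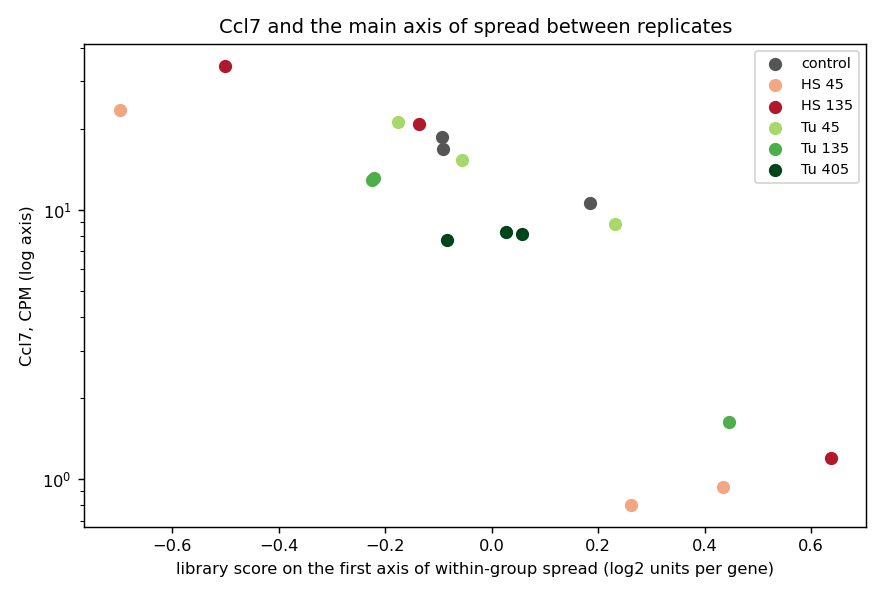
CPM of Ccl7 (log axis) against the score of each library on the first axis of the spread within groups (horizontal axis, log2 units per gene), with points coloured by group. The 4 libraries below 2 CPM lie at the right, at scores from 0.262 upwards, and belong to 3 different groups.

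With the control, Ccl7 passed the test only at 405 min of Tu, where all 3 libraries lay below all 3 controls. The difference was 1.88-fold (log2 fold change −0.91, standard error 0.211, adjusted p = 0.00837, edgeR) and was called in all 6 fits that left out 1 library, but not in a shared fit of all 6 groups (adjusted p = 0.56). For HS at 45 min the log2 fold change was −0.87 with a standard error of 1.16 (adjusted p = 0.632), and without HS replicate 3 it was −4.14 (adjusted p = 0.000733). At 135 min the values were 0.29 for HS (standard error 0.876, adjusted p = 0.847) and −0.70 for Tu (standard error 0.64, adjusted p = 0.591), and at 45 min of Tu 0.00 (standard error 0.344, adjusted p = 0.998).

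Among CXC chemokines, Cxcl10 (IP-10, chromosome 5, 92775667 to 92777880), the ligand of Cxcr3, was called in the most comparisons with control. It had 0.276, 0.143 and 0.137 CPM in the controls, which were 11, 8 and 6 reads, and 2.88, 4.14 and 2.39 CPM at 135 min of HS. The groups were separate by a wide gap. The difference was 17.0-fold (log2 fold change 4.08, standard error 0.419, adjusted p = 0.00792, edgeR), and the call was lost without control replicate 2 or 3 (adjusted p up to 0.071). HS libraries at 45 min had 0.401, 0.0653 and 0.189 CPM and lay on both sides of the controls (log2 fold change 0.26, standard error 0.641, adjusted p = 0.799).

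The time course of Cxcl10 was different under Tu. At 45 min there were 1.14, 0.834 and 0.910 CPM, all above the control, a 5.32-fold difference (log2 fold change 2.41, standard error 0.33, adjusted p = 0.0101, edgeR). This call was lost without control replicate 2, control replicate 3 or Tu replicate 2 (adjusted p up to 0.0578). At 135 min the level was lower, at 0.774, 0.431 and 0.410 CPM, still above all controls but without passing the test (log2 fold change 1.56, standard error 0.427, adjusted p = 0.14). By 405 min it was 1.36, 1.83 and 1.55 CPM, 8.74-fold above the control (log2 fold change 3.13, standard error 0.315, adjusted p = 0.000174) and 2.89-fold above 135 min (log2 fold change 1.53, standard error 0.296, adjusted p = 0.00493), and no fit that left out 1 library lost either call. The difference between 45 and 135 min did not pass the test (log2 fold change −0.84, standard error 0.302, adjusted p = 0.251). In the order of the 6 group means, Cxcl10 was the only member whose ranges were apart between each pair of neighbours save 1, that of 45 min of HS and the control.

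The heat shock and tunicamycin profiles of Cxcl10 also differed when set against each other. At 135 min HS exceeded Tu by 5.73-fold (log2 fold change 2.52, standard error 0.381, adjusted p = 0.0373, edgeR), a call lost in 4 of 6 fits that left out 1 library (those without HS replicate 3 or any of the 3 Tu replicates). At 45 min the difference was in the other direction, with every HS library below every Tu library, but it did not pass the test (log2 fold change −2.13, standard error 0.545, adjusted p = 0.131), except without HS replicate 3 (adjusted p = 0.0162). In HS, the 135 min libraries were all above those at 45 min (log2 fold change 3.77, standard error 0.63, adjusted p = 0.157).

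Cxcl5 (LIX, chromosome 5, 91188325 to 91190651), a neutrophil attractant that signals through Cxcr2, was lower under HS than in the control. Control libraries had 0.954, 1.55 and 1.40 CPM. At 45 min of HS there were 0.134, 0.109 and 0.421 CPM, and at 135 min 0.301, 0.244 and 0.193 CPM. All 6 HS libraries lay below all controls, at 5 to 29 reads each. The fall at 135 min was 5.25-fold (log2 fold change −2.39, standard error 0.348, adjusted p = 0.0159, edgeR), and the call was lost without control replicate 2, control replicate 3 or HS replicate 3 (adjusted p up to 0.114). The value at 45 min was of the same size, −2.50, with a larger standard error of 0.549, and did not pass (adjusted p = 0.227), though without HS replicate 3 it was −3.40 with an adjusted p of 0.0016.

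Under Tu, Cxcl5 had 0.713, 1.10 and 0.699 CPM at 45 min, 0.726, 0.675 and 0.219 CPM at 135 min and 0.773, 1.22 and 0.666 CPM at 405 min. Libraries at 45 and 405 min overlapped the controls, and those at 135 min lay below them. No Tu time passed the test, with log2 fold changes of −0.61, −1.24 and −0.54 and adjusted p-values of 0.221, 0.197 and 0.164 (edgeR). Without control replicate 1, the value at 405 min was −0.83 and passed, with an adjusted p of 0.0367.

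Cxcl1 (KC, chromosome 5, 91320271 to 91322139), the other Cxcr2 ligand here, lies 129619 bases from Cxcl5 and showed no detectable change. Its 18 values ran from 1.71 to 3.28 CPM, and every pair of neighbouring groups overlapped. In the comparisons with the control the log2 fold changes were −0.21, 0.25, 0.11, −0.11 and −0.17 in the order HS 45, HS 135, Tu 45, Tu 135 and Tu 405 min, with standard errors of 0.195 to 0.278 and adjusted p-values of 0.539 to 0.843. Intervals of 2 standard errors spanned −0.76 to 0.81 at the widest limits, so that changes within that range were not excluded by these libraries. It had 2.08, 2.70 and 2.24 CPM in the control, 1.99, 1.96 and 2.14 CPM at 45 min of HS and 2.25, 3.28 and 2.87 CPM at 135 min of HS. In either HS group 1 library lay within the range of the controls, with the others just below it at 45 min and above it at 135 min.

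Cxcl12 (SDF-1, chromosome 6), the ligand of Cxcr4 and Ackr3 that holds stem cells and leukocytes in their niches, was lowered at the latest time of Tu. Control libraries had 99.99, 72.7 and 61.5 CPM, and those at 405 min of Tu had 19.6, 19.8 and 19.2 CPM. The treated libraries were within 1 CPM of each other and far below every control. The fall was 3.94-fold (log2 fold change −1.98, standard error 0.191, adjusted p = 0.000141, edgeR) and was called in all 6 fits that left out 1 library. At 45 and 135 min of Tu the levels were 60.8, 37.2 and 52.1 CPM and 50.7, 72.8 and 78.4 CPM, with log2 fold changes of −0.63 and −0.19 that did not pass (adjusted p = 0.151 and 0.713). From 135 to 405 min the fall was 3.50-fold (log2 fold change −1.81, standard error 0.185, adjusted p = 0.000319).

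Under HS, Cxcl12 lay on the other side of the control. It had 113.8, 138.6 and 65.6 CPM at 45 min and 123, 213 and 177 CPM at 135 min. All libraries at 135 min were above all controls, and those at 45 min overlapped them. The log2 fold change at 135 min was 1.13 (standard error 0.279), just short of the threshold with an adjusted p of 0.0501 (edgeR). Of 6 fits that left out 1 library, only that without HS replicate 1 called it (adjusted p = 0.0201), and adjusted p ran up to 0.202. The difference was called with DESeq2 (adjusted p = 0.00728), in a shared fit of all 6 groups (adjusted p = 0.00996), with a GC offset (adjusted p = 0.0298) and without the read filter (adjusted p = 0.0426). It was not called with a replicate block (adjusted p = 0.177). The value at 45 min was 0.44 (standard error 0.323, adjusted p = 0.393), and 0.69 with an adjusted p of 0.0463 without HS replicate 3. Against Tu at 135 min, HS was higher in every library, by 1.32 on the log2 scale (standard error 0.275, adjusted p = 0.0619). This was called with DESeq2, the shared fit and the GC offset (adjusted p = 0.00113, 0.00553 and 0.0247). Of 6 fits that left out 1 library, 1 called it (adjusted p 0.0416 to 0.26), and the replicate block did not.

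Csf1 (M-CSF, chromosome 3) had the highest RPKM in the control, and in CPM stood at 509, 666 and 597 CPM in the control, 387, 671 and 583 CPM at 45 min of HS and 653, 892 and 776 CPM at 135 min of HS. Under Tu it had 592, 548 and 587 CPM at 45 min, 460, 763 and 680 CPM at 135 min and 489, 293 and 276 CPM at 405 min. The late Tu libraries lay below all controls on this scale, a 1.65-fold difference (log2 fold change −0.72, standard error 0.228, adjusted p = 0.0307, edgeR), and the call did not hold in 4 of 6 fits made with 1 library fewer (without control replicate 2 or 3, or Tu replicate 2 or 3). The other 4 comparisons with the control did not pass, with log2 fold changes of −0.11 to 0.39 and adjusted p-values of 0.268 to 0.942.

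The counts of Csf1 and Cxcl12 were made on gene models that differ between libraries. For Csf1, 14 libraries used positions 107543966 to 107563387 of chromosome 3 (mm9), and 4 (HS replicate 1 at 45 min, Tu replicate 1 at 135 min and Tu replicates 2 and 3 at 405 min) used 107548513 to 107563387, a model 0.556 times as long by the ratio of count to RPKM. These 4 libraries had the lowest Csf1 counts, 276 to 460 CPM against 489 to 892 CPM in the others. In RPKM, where the length is taken out, the late Tu libraries had 98.7, 101 and 95.6, beside 99.9, 138 and 126 in the control, so that the gap between the groups closed and the ranges overlapped. With the model length as an offset in the fit, the difference at 405 min of Tu was −0.21 on the log2 scale (standard error 0.136, adjusted p = 0.24, edgeR) and was not called. From 135 to 405 min of Tu, the fall of Csf1 was −0.87 on the log2 scale (standard error 0.273, adjusted p = 0.0343), and with the offset it was −0.61 (standard error 0.133, adjusted p = 0.00805) and was still called.

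For Cxcl12, 14 libraries used 117118581 to 117125087 of chromosome 6, and 4 (control replicate 2, Tu replicate 1 at 45 min and Tu replicates 2 and 3 at 135 min) used 117118581 to 117131385. The shorter model was 0.588 times as long as the longer one. In RPKM the controls had 44.3, 19.99 and 29.2, the libraries at 405 min of Tu 8.91, 8.58 and 8.34, and those at 135 min of HS 56.3, 77.5 and 70.8. The late Tu libraries remained below, and the HS libraries above, every control. With the length offset the fall at 405 min of Tu was −1.78 (standard error 0.283, adjusted p = 0.00143, edgeR), the HS value at 135 min was 1.33 (standard error 0.35, adjusted p = 0.056), and HS against Tu at 135 min became 1.85 (standard error 0.236, adjusted p = 0.0211) and was called. The models of the other 7 members had the same coordinates in all libraries.

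**Figure D4:**
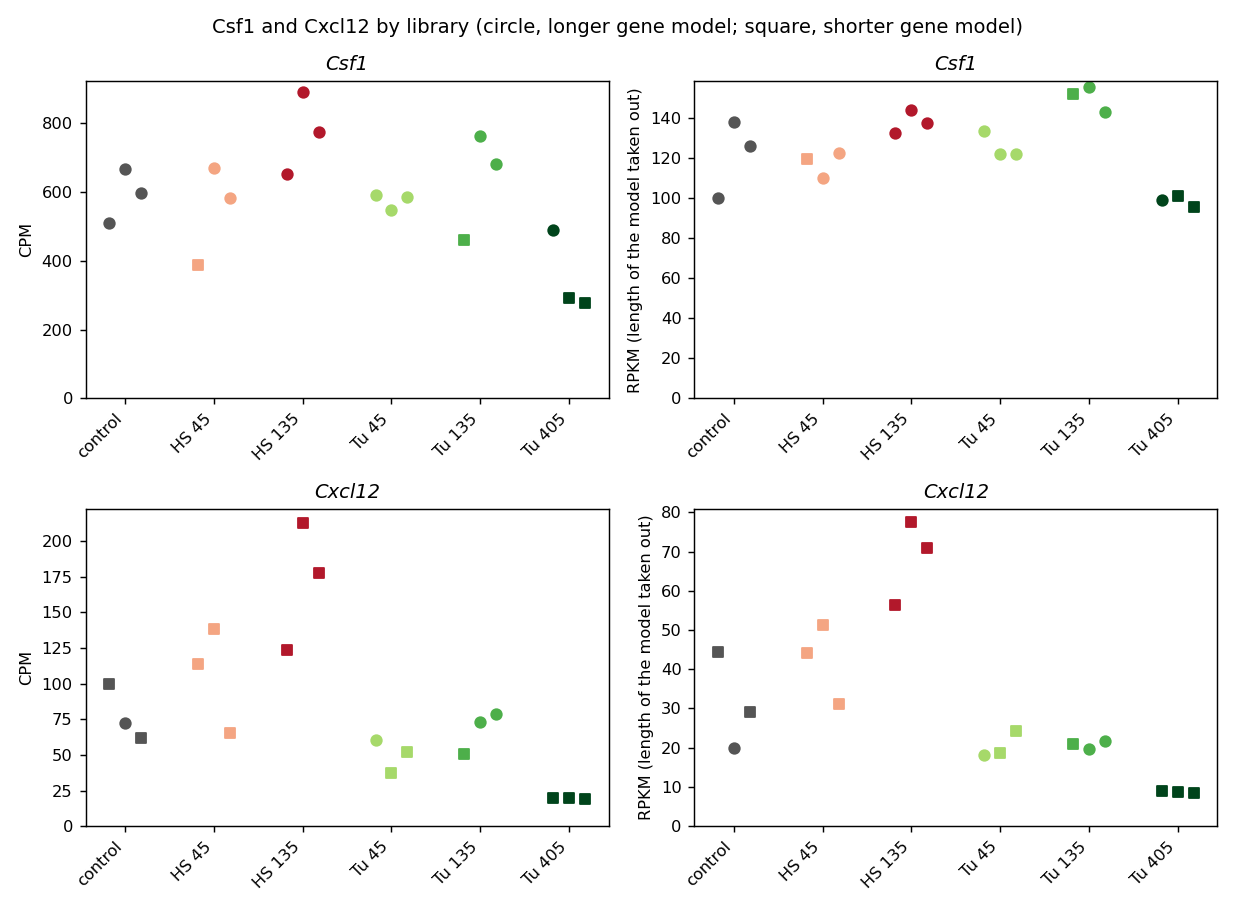
Csf1 (top) and Cxcl12 (bottom) in each library as CPM (left) and as RPKM (right), by group, with times in min. Circles mark libraries counted on the longer gene model and squares those on the shorter model. The late Tu libraries of Csf1 lie below the control in CPM and beside its lowest value in RPKM, whereas those of Cxcl12 lie below every control on both scales.

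Il6 (chromosome 5, 30339701 to 30346508) was at the limit of detection. It had 2, 13 and 1 reads in the control, 0, 0 and 9 at 45 min of HS, 2, 0 and 0 at 135 min of HS, 12, 17 and 4 at 45 min of Tu, 0, 9 and 13 at 135 min of Tu and 12, 19 and 13 at 405 min of Tu. The 5 libraries without a read put it outside the filter of at least 1 read in every library. A count of 0 there allowed up to 3 reads, or 0.0482 to 0.0691 CPM in these 5 libraries by total reads alone, before TMM scaling. This bound covers counting error only. In a fit without that filter, the log2 fold change at 405 min of Tu was 1.19 (standard error 0.624, adjusted p = 0.165, edgeR), and no direction was read from the HS groups. The 4 libraries with the highest scores on the axis of spread (0.262 to 0.637), the same in which Ccl7 was low, were among the 5 with 0 reads of Il6, and the part of the axis in these zeros was not tested.

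Direct comparisons between the stresses and between times called few further members. HS against Tu at 45 min called none (0.0628% of all genes higher and 0.141% lower), with 3 members at an unadjusted p under 0.05 (Cxcl10, Cxcl5 and Cxcl12) and 3 called by DESeq2, beside 24.0% of all genes at that p and 1127 genes called by DESeq2. Without HS replicate 3, 4 members passed, namely Ccl7 (−4.13), Cxcl5 (−2.78), Cxcl10 (−2.84) and Cxcl12 (1.33), as log2 fold changes. At 135 min the 2 members called were Ccl2 and Cxcl10, both higher in HS, against 1.3% of genes higher and 0.817% lower. HS at 135 against 45 min called none, against 0.0% and 0.0% of all genes, with 3 members at an unadjusted p under 0.05 (Ccl2, Cxcl10 and Ccl5) and 2 called by DESeq2, beside 11.6% of all genes at that p and 403 genes called by DESeq2. Tu at 135 against 45 min called none, against 0.118% and 0.173%, with 1 member (Cxcl10) at an unadjusted p under 0.05 and 0 called by DESeq2, beside 15.8% of all genes and 622 genes. Tu at 405 against 135 min called 2 higher (Ccl5, Cxcl10) and 3 lower (Ccl2, Cxcl12, Csf1), against 21.4% and 22.4% of all genes. Without Tu replicate 1 at 135 min, Ccl7 passed as well (log2 fold change −0.72, adjusted p = 0.000422).

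Other ligands of these families were mostly too low to test, with 6 of the 29 further chemokine genes listed and 11 of the 27 further cytokine genes passing the filter. Over all tested genes, 19.5%, 29.7%, 25.6%, 18.6% and 54.6% had an unadjusted p under 0.05. The order is HS 45, HS 135, Tu 45, Tu 135 and Tu 405 min, and these shares apply to this list and those below. At 405 min of Tu, 2 of the 6 chemokines were higher and 1 was lower, against 23.3% and 23.5% of all genes. Ccl9, a macrophage chemokine, was 3.18-fold higher (log2 fold change 1.67, adjusted p = 0.000109, edgeR), and Cx3cl1, the membrane-bound fractalkine, was 4.16-fold lower (log2 fold change −2.06, adjusted p = 5.57e-05), at 4.86 to 5.71 CPM against 20.3 to 25.9 CPM in the control. Ccl27a, a gene with near-identical copies whose model also differed in length between libraries, was higher by a log2 fold change of 1.17, or 1.30 with the length offset (adjusted p = 0.00583 and 0.00364). At the other 4 comparisons with the control none of the 6 was called, with 2 or 3 at an unadjusted p under 0.05. The medians of the 6 were −0.27, −0.10, −0.13, 0.09 and −0.04 in the order HS 45, HS 135, Tu 45, Tu 135 and Tu 405 min.

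Of the 11 further cytokines, 2 were higher and 3 lower at 405 min of Tu, against 23.3% and 23.5% of all genes. At 45 min of Tu 2 were higher and 0 lower, against 4.01% and 2.17%. Flt3l, a growth factor of dendritic cell precursors, was 5.22-fold higher (log2 fold change 2.38, adjusted p = 0.000123, edgeR) and was 2.08-fold higher at 45 min of Tu (adjusted p = 0.0425), when Lif was also called higher. Il1rn, the antagonist of the interleukin-1 receptor, rose 2.59-fold (adjusted p = 0.0107) and Il15 was 2.85-fold lower (adjusted p = 0.00224). None of the 11 was called under HS or at 135 min of Tu, with 1, 4 and 2 at an unadjusted p under 0.05 at 45 and 135 min of HS and 135 min of Tu. The list's median was −0.15, 0.41, 0.18, 0.21 and 0.15 in the same order of comparisons.

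Receptors of chemokines and cytokines gave 24 tested genes of 38 listed. At 405 min of Tu 4 were higher and 9 lower, against 23.3% and 23.5% of all genes. None was called in the other 4 comparisons, where 1 to 5 had an unadjusted p under 0.05. Il1rl1, the receptor of interleukin-33, was 6.68-fold lower (log2 fold change −2.74, adjusted p = 0.000106, edgeR) and Lifr, the receptor of Lif, was 3.64-fold lower (log2 fold change −1.86, adjusted p = 0.000386). The models of both genes differed in length between libraries, and with the length offset the values were −2.74 and −1.86. Ccr10, a receptor of Ccl27a, was higher (log2 fold change 1.89, adjusted p = 0.00765) from a control at the floor (0.0357 to 0.0915 CPM), so the size is imprecise, and Csf1r, the receptor of Csf1, was 2.45-fold lower (log2 fold change −1.29, adjusted p = 0.00163). The median over the 24 receptors was −0.30 at 405 min of Tu and −0.22 to 0.16 in the other comparisons.

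Genes of the NF-kB pathway, which is known to drive many of these ligands, had 14 tested of 15. At 45 min of Tu 4 of them were higher (Rel, Relb, Nfkbie and Tnfaip3) and 0 lower, against 4.01% and 2.17% of all genes. At 135 min of HS 1 was higher (Nfkbie), against 4.75% of all genes. At 405 min of Tu 5 were higher and 2 lower (Tnfaip3 and Ptgs2), against 23.3% and 23.5%. Relb, a subunit of the factor, was 4.14-fold higher at 405 min (adjusted p = 7.16e-05, edgeR), Nfkbib 3.40-fold (adjusted p = 0.000206) and Nfkbie 2.88-fold (adjusted p = 0.000567), the last pair being inhibitors of the factor. Neither 45 min of HS nor 135 min of Tu gave a call, with 7 and 3 genes at an unadjusted p under 0.05. Medians were 0.62, 0.52, 0.48, 0.36 and 0.18 in the order given before.

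The interferon response, which includes Cxcl10 by common usage, gave 11 tested genes of 14. Of all genes, 4.01% were higher and 2.17% lower at 45 min of Tu, and 23.3% and 23.5% at 405 min of Tu. At 45 min of Tu, when Cxcl10 was raised, Ifit1 and Oasl2 were the 2 called, both higher, by 2.41-fold and 5.01-fold (adjusted p = 0.0418 and 0.0222, edgeR). The control level of Oasl2 was at the floor (0.0251 to 0.0893 CPM), so the size of its folds is imprecise. At 405 min of Tu 4 were higher and 1 lower (Ifit2), among them Oasl2 by 3.78-fold, Isg15 by 2.18-fold and Ifit1 by 2.03-fold (adjusted p = 0.0069, 0.0026 and 0.0185). At 135 min of HS, when Cxcl10 was raised most, none of the 11 was called. An unadjusted p under 0.05 was found for 5 of them, beside 29.7% of all genes. Oasl2, Ifit1 and Isg15 had log2 fold changes of 1.62, 0.81 and 0.03 there (adjusted p = 0.0799, 0.168 and 0.953, edgeR). At 45 min of HS and 135 min of Tu none of the 11 was called either, with 3 in each at an unadjusted p under 0.05. Medians were 0.52, 0.52, 0.37, 0.31 and 0.01.

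Messages of this family often carry AU-rich elements, and 10 of 10 genes that bind them or help to degrade such messages were tested. Zfp36l1, a destabilizing protein, was 6.95-fold higher at 135 min of HS (adjusted p = 0.0127, edgeR) and higher at 405 min of Tu (log2 fold change 0.59, adjusted p = 0.0377). Its relative Zfp36l2 was lower at 135 min of HS, 45 min of Tu and 405 min of Tu, by 2.31-fold, 2.07-fold and 2.37-fold (adjusted p = 0.0271, 0.0162 and 0.00129). At 405 min of Tu the list had 3 higher and 2 lower, against 23.3% and 23.5% of all genes. The latter included Rc3h1 (roquin-1), which was 1.81-fold lower (adjusted p = 0.0307). At 135 min of HS 1 was higher and 1 lower, against 4.75% and 2.64%, and at 45 min of Tu 1 was lower, against 2.17%. None was called at 45 min of HS or 135 min of Tu, with 4 and 2 at an unadjusted p under 0.05. Medians were 0.13, 0.07, −0.30, 0.28 and 0.10.

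Among proteases known to trim or shed chemokines, 4 of 6 were tested and all 4 were called at 405 min of Tu. At that time 23.3% of all genes were higher and 23.5% lower. Mmp9 was 2.59-fold higher (adjusted p = 0.018, edgeR), while Mmp2, Adam10 and Adam17 were lower, Mmp2 by 1.95-fold (adjusted p = 0.000721) and Adam10 by 1.75-fold (adjusted p = 0.0318). In the other 4 comparisons none was called, and 1 had an unadjusted p under 0.05 at 135 min of HS and 0 elsewhere. Medians were 0.10, 0.36, −0.03, −0.04 and −0.71.

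Of the 10 fibroblast markers, 7 were lower at 405 min of Tu, against 23.5% of all genes. Fn1, Col5a1 and Thy1 were not called (log2 fold changes 0.16, 0.12 and −0.14). Summed levels were 21532.8 to 23540.6 CPM at that time against 30259.2 to 39692.9 CPM in the control. Col3a1 and Col5a1, both collagens, were the 2 markers called at 135 min of HS, both higher, against 4.75% of all genes. The sum over the 10 markers was then 47294.2 to 80657.5 CPM. The most abundant, Col1a1, Fn1 and Col1a2, were not called (log2 fold changes 1.21, 0.89 and 0.96, edgeR adjusted p = 0.0801, 0.091 and 0.0798). S100a4 was lower without being called (log2 fold change −1.35, standard error 0.874, adjusted p = 0.323). The sum thus moved in the direction of Cxcl12 in both groups, and its part in the Cxcl12 values was not tested. Leukocyte markers summed to 11.8 to 12.7 CPM at 405 min of Tu and 15.5 to 17.6 CPM in the control. Csf1r and Cd14 were called lower at that time, and Cd68 and Itgam were not called (log2 fold changes −0.09 and −0.11). Lyz2 and Ptprc, which were not tested, had means of 0.0784 and 0.00588 CPM at that time against 0.0370 and 0 CPM in the control. The part of such cells in the Ccl5 values was not tested. Endothelial and epithelial markers summed to at most 0.569 and 0.616 CPM in any library.

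As a description with no test, the genes whose log2 CPM followed each member most closely over the 18 libraries were ranked by Pearson's r among about 10856 genes. These points share libraries, depth and the axis of spread given above. For Csf1 and Cxcl12 they also carry the gene models that differ between libraries, since CPM take no account of model length. Ccl7 had the closest neighbours, Mga and Mum1l1 at 0.985 each. Cxcl12 was followed by Twsg1 (0.961), Mgat3 (0.957) and Tbc1d2b (0.957), and Cxcl10 by Slc7a1 (0.941), 8430406I07Rik (0.919) and Aff1 (0.891). Nearest to Ccl2 were Il18bp (0.934), Syt11 (0.921) and Mon1b (0.916), and nearest to Ccl5 were Fam20a (0.923), Reep6 (0.877) and Snx26 (0.858). The likeness was lower for Csf1, with Nab1 (0.874), Ttc30b (0.866) and Golm1 (0.865), and lowest for Cxcl1, with Slc16a6 (0.747), Tmem223 (0.677) and Dnajc14 (0.669). Cxcl5 and Il6 had under 50 reads on average and were not ranked.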

How the data were processed

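mRNA-seq files of 18 libraries were analysed (6 groups of 3), grouped by their labels. The authors aligned reads to mm9 on the DNAnexus platform, and the aligner and counter are not given in the sources used here. Each deposited file gave an estimated count per gene, without normalization, and an RPKM value derived by the authors from that count. RPKM served for levels and model lengths, and Z-score and root-mean-square columns were not used. The 9 genes and all lists were chosen with earlier results of these data known. All members were named, with up to 3 genes of each list (the largest called changes against the control), the 3 genes most like each member, and stress and cell type markers. Other genes that make up a small count were named after their values were seen. A gene that this rule would name is not reported here.

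Estimated counts were rounded and joined by gene name. Each comparison was fitted with edgeR 4.0.16 (R 4.3.3), TMM and the quasi-likelihood test, tested on simulated data first. Benjamini-Hochberg adjustment covered 12731 genes, those with 1 read or more in all 18 libraries. CPM per library are on 1 TMM scale over all libraries, and fold changes come from the fits. Of the genes tested, 12431 (97.6%) had a GC value. Coordinates of 741 genes differed between files, and 365 of 10646 genes with 20 reads or more in every library (3.4%) differed by over 5% in implied model length. Alternatives were DESeq2 1.42.0, other filters and scalings, a shared fit, GC and model length offsets, a replicate block and leaving out each library. The labels do not say that equal replicate numbers pair libraries. Deviations of same-numbered libraries correlated in every pair for Tu at 135 min against control (0.339, 0.322 and 0.299) and in no other comparison. In both of these groups replicate 1 had the highest score on the axis of spread (0.185 in the control, 0.445 in Tu). These correlations therefore cannot show a pairing, and the main fits used no block. Depth was 33415592 to 66478268 reads, and floors cover counting error only. Python 3.11.15, numpy 2.4.6 and pandas 2.3.3 were used.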

Additional observations from a re-analysis of the deposited data

Results flagged for a closer look

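Ccl2 and Cxcl10 were singled out because their responses to HS and to Tu at 135 min differed by a test of the difference itself. The log2 fold change of HS against Tu was 1.41 for Ccl2 and 2.52 for Cxcl10 (adjusted p = 0.0354 and 0.0373, edgeR with Benjamini-Hochberg adjustment), with 3 of 3 HS libraries above 3 of 3 Tu libraries for both genes. With adjusted p-values this near the limit, leaving out 1 library ended the call in 5 of 6 fits for Ccl2 and 4 of 6 for Cxcl10, while the log2 values stayed between 1.31 and 1.56 and between 2.30 and 2.85. A GC offset also ended the Ccl2 call (log2 fold change 1.61, adjusted p = 0.056).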

How the results depend on the processing

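Of 47 member values checked, DESeq2 kept the direction and side of the threshold of 44, the GC offset 41 and the replicate block 38. The cause of the changes below was not tested. Members called at 45 min of HS were 0, but 1 with DESeq2, 2 in the shared fit and 0 to 3 when leaving out 1 library. At 135 min of HS there were 3, but 4 with DESeq2, 4 in the shared fit, 4 with the GC offset, 4 without the filter, 0 with the replicate block and 0 to 4 when leaving out 1 library. At 45 min of Tu there was 1, but 2 with DESeq2, 2 in the shared fit, 2 with the GC offset, 0 with the block and 0 to 3 when leaving out 1 library. At 405 min of Tu 2 were higher and 3 lower, and DESeq2 called 5. There the Csf1 call was lost with the length offset and with the block (edgeR, adjusted p = 0.0513). It was also lost in 4 of 6 fits that left out 1 library. The Ccl7 call was lost in the shared fit (edgeR, adjusted p = 0.56), and Cxcl5 was gained without control replicate 1. For HS against Tu, 45 min gave 0, but 3 with DESeq2, 3 in the shared fit and 0 to 4 when leaving out 1 library, and 135 min gave 2, but 3 with DESeq2, 3 in the shared fit, 3 with the length offset, 2 with the GC offset (Ccl2 lost and Cxcl12 gained), 0 with the block, 0 with the GC offset and block, and 0 to 3 when leaving out 1 library. HS at 135 against 45 min gave 0, but 2 with DESeq2, 1 with total counts and 2 in the shared fit.

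Values that changed sign were uncalled. Against the control these were Cxcl1 at 45 min of HS (0.26 with the GC offset, 0.25 with the block added) and at 135 min of Tu (0.10 and 0.09), Csf1 at 45 min of HS (0.14 with the length offset), at 45 min of Tu (0.08 with total counts) and at 135 min of Tu (−0.01 with the GC offset and block), and Ccl7 at 135 min of HS (−0.36 with the block, −0.03 with the GC offset added), beside Ccl7 at 45 min of Tu, a value near 0 (0.00, and −0.06 with the block). In other comparisons the sign changed for HS against Tu at 45 min with the GC offset (Cxcl1 0.14 and Ccl2 0.45) and the length offset (Csf1 0.17), and for Ccl7 at 405 against 135 min of Tu with the block (0.18). Against the control, leaving out 1 library gave ranges across 0 for Ccl2 (−0.03 to 0.76), Cxcl10 (−0.46 to 0.66) and Csf1 (−0.28 to 0.09) at 45 min of HS, Ccl7 at 135 min of HS (−0.48 to 0.87), Csf1 (−0.12 to 0.07) and Ccl7 (−0.33 to 0.28) at 45 min of Tu, and Cxcl1 (−0.18 to 0.005), Cxcl12 (−0.34 to 0.03) and Csf1 (−0.04 to 0.32) at 135 min of Tu. The block changed no call at 135 min of Tu against the control. The length offset was chosen after seeing the data. Levels of Ccl5, Cxcl10 and Il6 in the control rest on 1 to 16 reads, which limits the precision of their folds.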
